A study of Mus musculus with 29 samples.

Results

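Oxidative phosphorylation is carried out by complexes that draw their subunits from both genomes of the cell, and 102 protein-coding genes of these complexes were followed here in mouse PFC tissue, primary microglia and neuron-microglia co-cultures. The genes were chosen by name, as those whose symbol starts with Nduf followed by a, b, c, s or v, with Uqcr, with Cox and a digit from 4 to 8, or with Atp5, together with the mitochondrial mt-Nd, mt-Co, mt-Cytb and mt-Atp genes. Of the 48709 gene identifiers in the count tables, 89 nuclear and 13 mitochondrial genes met this rule. The nuclear genes comprise 38 named for complex I, 8 Ndufaf assembly factors of complex I, 8 for complex III, 18 for complex IV and 17 for complex V. The mitochondrial genes comprise 7 for complex I, 1 for complex III, 3 for complex IV and 2 for complex V.

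Complex I (NADH dehydrogenase), complex III (the cytochrome bc1 complex) and complex IV (cytochrome c oxidase) pass electrons to oxygen and pump protons across the inner mitochondrial membrane, and complex V (ATP synthase) uses the resulting gradient to make ATP. The mitochondrial genome encodes core subunits of each of them, transcribed inside the organelle, whereas the other subunits are transcribed in the nucleus and imported. Neurons rely strongly on this pathway, and microglia are known to shift between oxidative metabolism and glycolysis with their activation state.

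The RNA came from 29 libraries. PFC tissue was taken from C57BL/6J mice of 3 months, 5 days after injection of lipid nanoparticles with anti-miR-99b, a locked nucleic acid (LNA) inhibitor of miR-99b-5p (n = 3), or with sc-control, a scrambled LNA (n = 3). Primary microglia of CD1 pups (postnatal day 1), shaken off mixed glial cultures, were given anti-miR-99b (4 libraries) or sc-control (4 libraries) for 2 days. In the co-cultures, CD1 microglia were first given anti-miR-99b (7 libraries) or sc-control (8 libraries). They were then kept for 48 h with untreated cortical neurons of CD1 embryos (embryonic day 17.5), and RNA of the whole culture was sequenced together. Tissue and co-culture are mixtures, in which fewer cells of a type and less RNA per cell cannot be told apart. Between 21324156 and 37901110 reads per library were counted on genes. The microglia marker list was summed at 12586 to 13319 CPM (counts scaled to the normalised library size) in the microglia, against 123 to 172 CPM in the co-cultures and 584 to 871 CPM in the PFC, and the neuron list at 113 to 127, 6121 to 6442 and 9166 to 9971 CPM, respectively. The astrocyte list was at 250 to 297 CPM in the microglia, 2220 to 2417 CPM in the co-cultures and 3595 to 4312 CPM in the PFC. Astrocyte marker RNA was thus present in the co-cultures too. No pair of libraries of 1 group agreed within sampling noise, and the labels do not say whether culture libraries came from separate preparations, so that p-values there cover the spread between libraries.

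The sequence context of the members is given first, since it bears on which of them could be measured. The inhibited miRNA, miR-99b-5p, is encoded on chromosome 17 (GRCm38.p6, chr17:17830194-17830215, plus strand), and its RefSeq sequence is shown with the seed, bases 2 to 8, in capitals.
mmu-miR-99b-5p: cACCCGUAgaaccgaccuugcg
The complement of this seed, TACGGGT, did not occur in any annotated 3' untranslated region of the 89 nuclear members, and it occurred in that of 249 of 20848 protein-coding genes (1.19%). The regions of the members were shorter, with a median of 197 bases for the longest region of a gene against 963 bases over all protein-coding genes.

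Of the 13 mitochondrial genes, 6 were at or close to 0 counts in every library, although mitochondrial messenger RNAs are known to be abundant. mt-Co2, mt-Atp8, mt-Co3 and mt-Nd4l had no count in any of the 29 libraries, mt-Atp6 had 1 count in 1 co-culture library, and mt-Nd3 had at most 7 counts. For 5 of these genes, nearly every 50-base window of the transcript, the length of the reads, was found again in a nuclear pseudogene of the annotation. The share of such windows was 100% for mt-Co2, 99.9% for mt-Co3, 99.5% for mt-Atp6, 98.8% for mt-Nd4l and 98.0% for mt-Nd3. The pseudogenes lie side by side on chromosome 1 (GRCm38), in the order Gm10222, Gm28438, Gm28437, Gm10925 and Gm28661 from chr1:24612407-24612700 to chr1:24614885-24615565, all on the minus strand. Over the aligned bases, 4 of the 5 copies did not differ from the mitochondrial gene. The opening 120 bases of mt-Co2, a catalytic subunit of complex IV, and of Gm28661 are shown because they are the same in every letter.
mt-Co2 (chrM:7013-7132, plus strand): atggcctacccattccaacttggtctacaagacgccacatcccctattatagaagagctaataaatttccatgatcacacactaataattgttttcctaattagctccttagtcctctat
Gm28661 (chr1:24615446-24615565, minus strand): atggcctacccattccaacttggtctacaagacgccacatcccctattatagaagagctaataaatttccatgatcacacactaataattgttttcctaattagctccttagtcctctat
Gm28661 itself had between 0 and 4 counts per library, so that hardly any counts fell on either gene.

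mt-Nd3 and Gm28438 are the pair with a difference. Over 345 aligned bases they differed at 1, T3C, with positions counted from 1 at the first base of mt-Nd3. The differing base is base 9461 of the mitochondrial genome. The opening bases of both genes are shown with that base in capitals.
mt-Nd3 (chrM:9459-9579, plus strand): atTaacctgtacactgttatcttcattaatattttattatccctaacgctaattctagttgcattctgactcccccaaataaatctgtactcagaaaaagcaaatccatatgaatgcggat
Gm28438 (chr1:24612999-24613119, minus strand): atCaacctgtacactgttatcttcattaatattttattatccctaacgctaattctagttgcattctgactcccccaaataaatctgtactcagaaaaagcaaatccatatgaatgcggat
In the PFC libraries mt-Nd3 had 0 to 7 counts, 19 in all, and Gm28438 had 0 to 1. In the microglia mt-Nd3 had 1 count in all 8 libraries together and Gm28438 had 54 to 92 per library, and in the co-cultures mt-Nd3 had none and Gm28438 99 to 184. The counts were thus on the mitochondrial gene in the C57BL/6J tissue and on the chromosome 1 copy in the CD1 cultures. Strain, tissue and preparation move together here and cannot be told apart.

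mt-Atp8 is different, since none of its 50-base windows was found in another annotated transcript. It lies at chrM:7766-7969, between mt-Co2 and mt-Atp6, whose ends are 230 bases apart, and the copies of these genes on chromosome 1 are 233 bases apart with no gene annotated between them in the tables. The sequence of that interval was not analysed here. The remaining 7 mitochondrial genes had shared windows of 0% (mt-Nd1, mt-Nd6 and mt-Cytb), 7.61% (mt-Nd5), 8.19% (mt-Nd2), 51.1% (mt-Co1) and 62.2% (mt-Nd4). Only these 7 passed the filter on low counts, so that complex V has no measured mitochondrial member.

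The same measure was applied to the nuclear members. Of the 89, 42 shared no window with another gene, and 12 shared over 30% of them. The highest shares were those of Atp5g2 (87.4%), an isoform gene of the c subunit of ATP synthase, Atp5l (84.8%), the g subunit, and Cox7c (53.0%), a small subunit of complex IV. In the sc-control co-cultures Atp5g2 was at 2.56 and Atp5g3, another c subunit gene, at 335 CPM per kilobase of transcript. Atp5g3 shared no window. Whether the shared sequence set any of these levels was not tested.

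**Figure D1:**
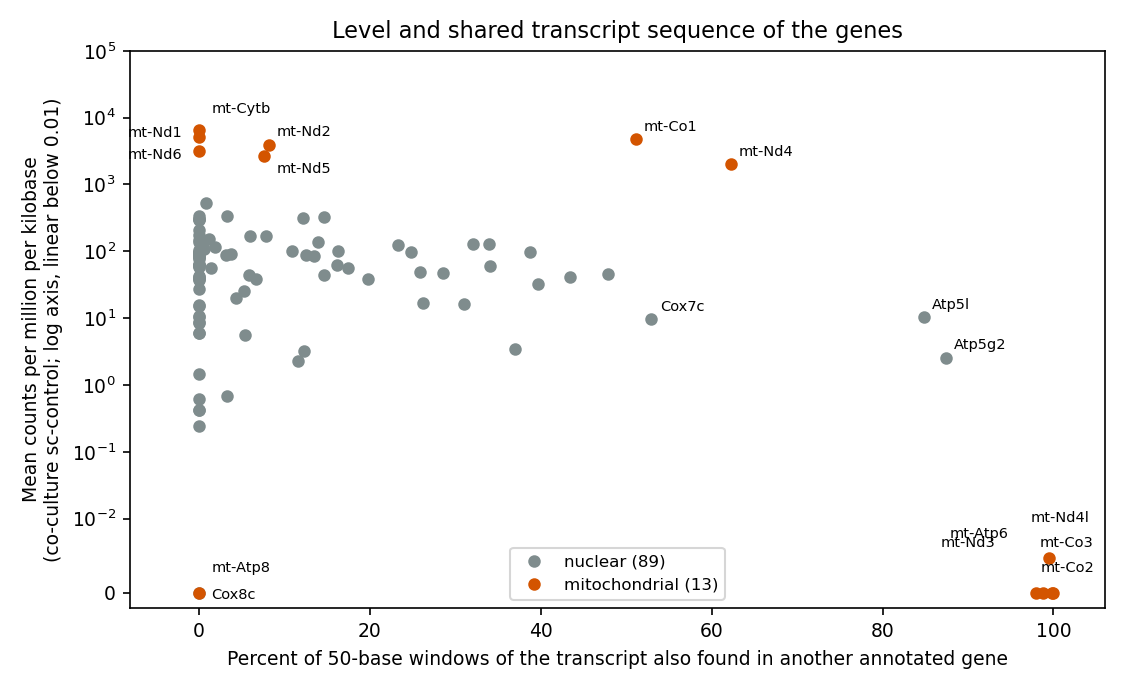
Percent of the 50-base windows of each gene's principal transcript that occur in another annotated gene (horizontal axis) against the mean level in the co-culture sc-control libraries in CPM per kilobase (vertical axis, logarithmic above 0.01 and linear below). Of the 13 mitochondrial genes (orange), 5 lie at or next to 0 at 98.0% shared windows or more, mt-Atp8 lies at 0 without any, and 7 lie above every nuclear gene (grey).

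The 13 mitochondrial genes took up 2.17 to 3.33% of all counts in the PFC, 1.89 to 2.05% in the microglia and 3.11 to 3.70% in the co-cultures. The 89 nuclear genes took up 0.834 to 0.920%, 0.679 to 0.741% and 0.760 to 0.830%, respectively. Mitochondrial counts were thus 2.44 to 4.00 times the nuclear ones in the PFC, 2.55 to 2.92 times in the microglia and 3.85 to 4.79 times in the co-cultures, from 7 measured genes. The libraries were selected for polyadenylated RNA, and mitochondrial ribosomal RNA made up 0.279 to 0.687%, 0.0683 to 0.0753% and 0.246 to 0.331% of counts.

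By treatment, the mitochondrial share of the PFC was 2.17, 3.16 and 3.32% after anti-miR-99b and 3.27, 2.43 and 3.33% after sc-control. Each group held 1 library with a low share, and the ranges overlapped. The mitochondrial to nuclear ratio was 3.27 ± 0.769 (SD, n = 3) after anti-miR-99b and 3.42 ± 0.689 (SD, n = 3) after sc-control. On the log2 scale this is a difference of -0.07, smaller than the spread between libraries. Leaving out single libraries moved it between -0.24 and 0.13, and it was -0.10 within lane 6 and -0.02 within lane 7.

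In the microglia the shares were 1.90, 1.99, 2.00 and 1.90% after anti-miR-99b and 1.89, 2.02, 1.92 and 2.05% after sc-control. The ratio was 2.77 ± 0.0591 (SD, n = 4) against 2.80 ± 0.174 (SD, n = 4), a log2 difference of -0.01 that turned to 0.02 within lane 5 and was -0.05 within lane 6. In the co-cultures the mitochondrial share had a lowest value of 3.11, a median of 3.56 and a highest value of 3.70% after anti-miR-99b, and 3.27, 3.42 and 3.60% after sc-control. The ratio was 4.35 ± 0.292 (SD, n = 7) against 4.37 ± 0.209 (SD, n = 8), a log2 difference of -0.01, with 0.03, -0.08, 0.14 and -0.06 within lanes 4, 5, 6 and 7. In no experiment did the ratio of the treated libraries lie apart from that of the controls.

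**Figure D2:**
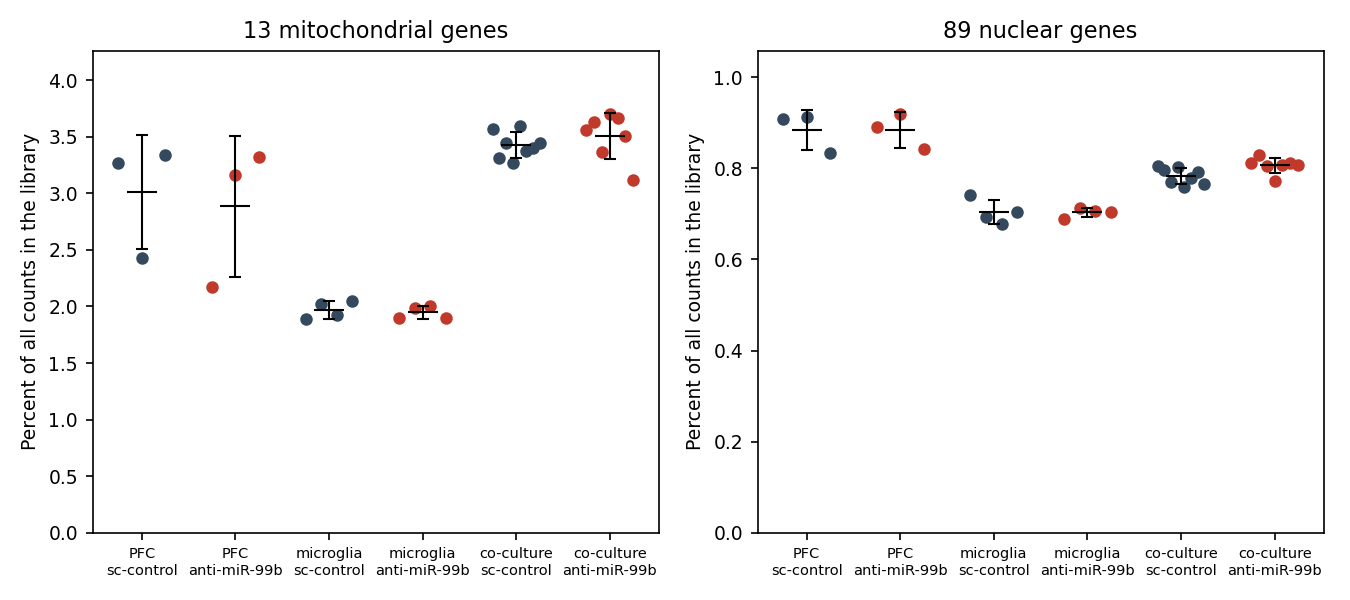
Percent of all counts of a library that fell on the 13 mitochondrial genes (left) and the 89 nuclear genes (right), 1 point per library, with the mean and SD of each group in black. Treated (red) and sc-control (dark) libraries overlap in each experiment, while the microglia lie lowest in both panels, at 1.89 to 2.05% and 0.679 to 0.741%.

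In the PFC no member passed the threshold of an adjusted p under 0.1 with a log2 fold change (log2FC) beyond 0.2 (edgeR's quasi-likelihood test with Benjamini-Hochberg adjustment). Of all 17364 genes tested, 15 passed it (0.0864%), all of them higher after anti-miR-99b. Of the 87 nuclear members tested, 35 had a log2FC above 0 and 52 below 0, with a median of -0.01, beside 50.6% of all genes above 0 and a median of 0.00. At an unadjusted p under 0.05 there was 1 lower nuclear member and no higher one, where all genes gave 2.47% lower and 5.17% higher, or 7.64% together. DESeq2 also called no member.

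The member with the lowest p in the PFC was Ndufaf1, an assembly factor of complex I. It was at 15.6, 17.3 and 17.2 CPM after anti-miR-99b and at 19.6, 18.4 and 20.9 CPM after sc-control, so that the groups did not overlap. The log2FC was -0.23 ± 0.09 (SE), with an adjusted p of 0.644 by edgeR. Non-overlap towards lower values was found for 3 nuclear members and for 5.81% of all genes, and towards higher values for no member and 7.52% of all genes. For complex V the lowest p belonged to Atp5f1, the b subunit of the stator of ATP synthase, at 100.1, 116.5 and 113.7 CPM after anti-miR-99b and 128.8, 117.7 and 123.0 CPM after sc-control (log2FC -0.16 ± 0.08, edgeR adjusted p = 0.660). Atp5f1 overlaps Wdr77 on the opposite strand over 8.2% of its exons. Ndufs4, a complex I subunit known from Leigh syndrome, Uqcrc2, a core protein of complex III, and Cox5a of complex IV had log2FC of -0.15, -0.11 and 0.11. The highest log2FC were those of Ndufa4l2 (0.29 ± 0.16), Ndufb7 (0.23 ± 0.12) and Atp5g2 (0.21 ± 0.24), and the lowest nuclear ones those of Ndufaf4 (-0.26 ± 0.18) and Atp5s (-0.26 ± 0.15).

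The 7 measured mitochondrial genes of the PFC had log2FC from -0.27 (mt-Nd1) to 0.01 (mt-Nd5), 6 of 7 below 0, and none passed the threshold. mt-Co1, the core subunit of complex IV, was at 5707, 9385 and 10623 CPM after anti-miR-99b and at 10166, 7476 and 9935 CPM after sc-control. mt-Nd1, a core subunit of complex I, was at 2761, 4231 and 4073 CPM against 5031, 3164 and 5122 CPM. The lowest value of both genes came from 1 treated library and the next lowest from 1 sc-control library, and the groups overlapped. Of the 10 microglia markers 9 had a log2FC above 0 in this comparison, with a summed level of 807 to 871 CPM after anti-miR-99b and 584 to 823 CPM after sc-control, and none passed the threshold; their part in the members' values was not tested.

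In the microglia no member passed the threshold either (adjusted p under 0.1 and log2FC beyond 0.1), while 73 of 14953 genes did (0.488%), 65 higher (0.435%) and 8 lower (0.0535%). Of the 85 nuclear members tested 48 lay above 0 and 37 below, with a median log2FC of 0.01, beside 51.6% of all genes above 0 and a median of 0.00. At an unadjusted p under 0.05 there were 1 higher and 1 lower member, and all genes gave 3.4% and 3.04%. No member separated the groups in either direction, as 1.65% of all genes did towards higher and 1.8% towards lower values. DESeq2 called no member. Cox6c, a small nuclear subunit of complex IV, was at 70.8, 76.3, 73.7 and 72.7 CPM after anti-miR-99b and at 81.6, 80.5, 73.1 and 77.2 CPM after sc-control. The highest treated value lay inside the control range, and the log2FC was -0.09 ± 0.04 (SE, edgeR adjusted p = 0.695). Ndufa9, a complex I subunit next to the quinone channel, was at 92.8, 99.1, 98.2 and 95.9 CPM against 95.6, 91.4, 87.4 and 93.4 CPM, with a log2FC of 0.07 ± 0.03 (SE, edgeR adjusted p = 0.765). The lowest p in complex V, complex III and the assembly factors belonged to Atp5mpl, Uqcrb and Ndufaf3, with log2FC of -0.06, -0.07 and -0.06. Highest were Cox4i2 (0.34 ± 0.29), Cox7a1 (0.22 ± 0.17) and Ndufb4 (0.10 ± 0.13), and lowest beside Cox6c were Cox7c (-0.16 ± 0.11) and Ndufb2 (-0.07 ± 0.07).

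The mitochondrial genes of the microglia had log2FC from -0.06 (mt-Nd5) to 0.04 (mt-Co1). mt-Nd5, a proton-pumping subunit of complex I, was at 2628, 2699, 2731 and 2566 CPM after anti-miR-99b and at 2504, 2872, 2803 and 2885 CPM after sc-control. A single control library, number 2, lay below all treated ones. Without it, mt-Nd5 and mt-Nd6 passed the threshold, with log2FC of -0.10 (edgeR adjusted p = 0.0204) and -0.11 (edgeR adjusted p = 0.0464), so that the absence of a mitochondrial call rests on this library. mt-Nd6 overlaps mt-Nd5 on the opposite strand over 14 bases, 2.7% of its exons, and the strand setting of the counts is not given. Whether the counts of these genes are separate was not tested. mt-Co1 stood at 6547 to 6879 CPM after anti-miR-99b and at 6379 to 6688 CPM after sc-control.

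The co-cultures had a threshold of an adjusted p under 0.05 and a log2FC beyond 0.1, which 227 of 16193 genes passed (1.4%), 137 higher (0.846%) and 90 lower (0.556%). Of the nuclear members, 77 of 85 tested had a log2FC above 0, with a median of 0.04, beside 51.6% of all genes above 0 and a median of 0.00. At an unadjusted p under 0.05, 17 nuclear members were higher and none lower, where all genes gave 6.4% higher and 6.81% lower. By complex, 36 of 38 members of complex I lay above 0, 7 of 8 assembly factors, 7 of 8 of complex III, 12 of 14 of complex IV and 15 of 17 of complex V. No member separated the groups, as 0.303% of all genes did towards higher and 0.278% towards lower values. After each library was corrected for a dependence on gene length, 59 of 85 were above 0 and the median was 0.01. The 51.6% of all genes belongs to the uncorrected fit. The share of all genes above 0 after the correction is not given here, so the corrected count has no background beside it. The median exon length of these members was 1587 bases, against 3521 bases for all protein-coding genes, tested or not.

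Only Atp5k passed the threshold, 1 of 85 nuclear members tested, where 1.4% of all genes passed it and 0.846% did so towards higher values. Atp5k is the gene of the e subunit of ATP synthase, a small membrane subunit involved in dimer formation (chr5:108433244-108434448, minus strand, GRCm38). Its level had a lowest value of 61.3, a median of 65.7 and a highest value of 67.4 CPM after anti-miR-99b, and 52.7, 59.4 and 62.9 CPM after sc-control. All treated libraries but the lowest lay above every control. The log2FC was 0.15 ± 0.03 (SE, n = 7 and 8), with an adjusted p of 0.0160 by edgeR and 0.00314 by DESeq2. It stayed past the threshold without any single library (log2FC of 0.13 to 0.17) and with lane as a block (edgeR adjusted p = 0.0489), but not with the length trend removed, where it was 0.11 (edgeR adjusted p = 0.0570).

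Next by p were Uqcrh, the hinge protein of complex III, and Ndufa5, an accessory subunit of complex I. Uqcrh had a lowest value of 99.7, a median of 102.3 and a highest value of 112.1 CPM after anti-miR-99b, and 92.2, 98.9 and 100.6 CPM after sc-control. The log2FC was 0.09 ± 0.03 (SE, edgeR adjusted p = 0.0933). Ndufa5 had 35.9, 39.97 and 40.8 CPM against 34.3, 36.1 and 38.1 CPM, with a log2FC of 0.11 ± 0.03 (SE, edgeR adjusted p = 0.0935). For both, all treated libraries but the lowest lay above every control. Cox6c was at 0.07 ± 0.02 and the assembly factor Ndufaf8 at 0.16 ± 0.05 (log2FC ± SE), with edgeR adjusted p of 0.154 and 0.165. The extremes of the log2FC were held by members of low level, Ndufa4l2 (0.38 ± 0.19) and Cox6a2 (0.19 ± 0.18) above and Atp5g2 (-0.12 ± 0.12), Atp5g1 (-0.09 ± 0.07) and Cox6b2 (-0.09 ± 0.10) below.

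**Figure D3:**
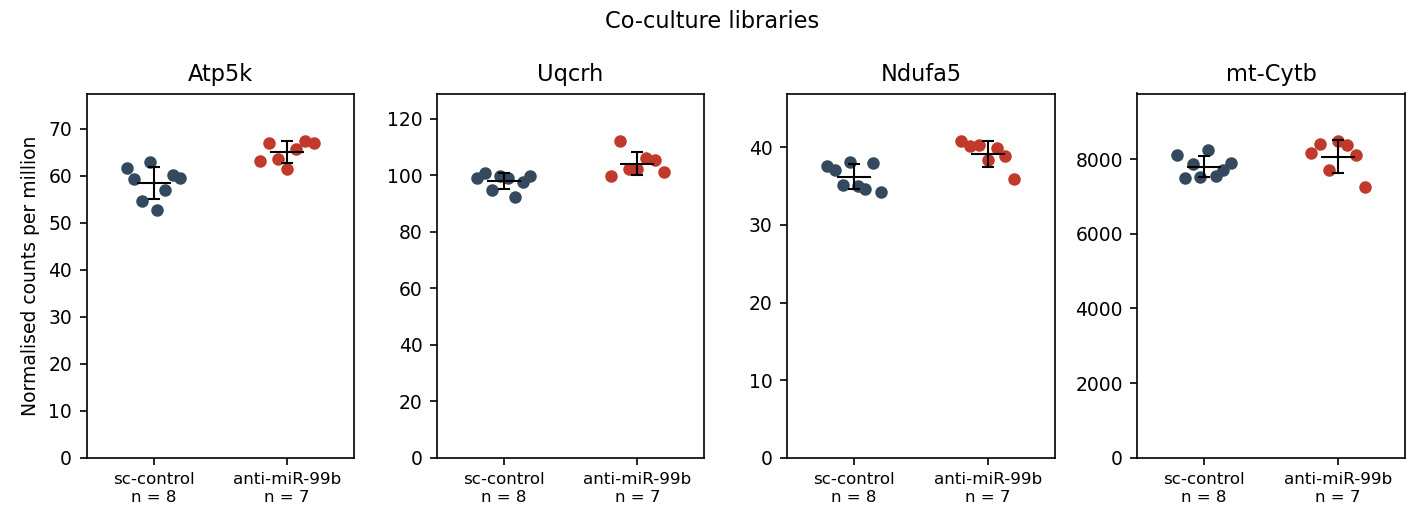
Normalised CPM of Atp5k, Uqcrh, Ndufa5 and mt-Cytb in the 15 co-culture libraries, 1 point per library, with the mean and SD of each group in black and the vertical axes starting at 0. For each of the 3 nuclear genes, all treated values (red) but the lowest lie above the sc-control range (dark). Treated values of Atp5k span 61.3 to 67.4 against 52.7 to 62.9, and those of mt-Cytb 7242 to 8487 against 7498 to 8251.

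The promoters of the 3 nuclear genes with the lowest p in the co-cultures are shown as 300-base windows from RefSeq (GRCm38.p6), from 250 bases before to 50 after a transcript start in RefSeq. The GENCODE gene model begins upstream of that start for Atp5k, within the window, and for Ndufa5, outside it, and RefSeq gives Ndufa5 a second, overlapping window with the same number of motif matches, which is not shown. Letters of the motifs searched are in capitals. The motifs were those known for factors of mitochondrial genes, NRF1 (GCGCA and GCGC with any base between them), GABPA (CCGGAAG), YY1 (AAGATGGC), NF-Y (CCAAT) and SP1 (GGGCGG), on both strands, and none of them contains another.
Atp5k (chr5:108434350-108434649, minus strand): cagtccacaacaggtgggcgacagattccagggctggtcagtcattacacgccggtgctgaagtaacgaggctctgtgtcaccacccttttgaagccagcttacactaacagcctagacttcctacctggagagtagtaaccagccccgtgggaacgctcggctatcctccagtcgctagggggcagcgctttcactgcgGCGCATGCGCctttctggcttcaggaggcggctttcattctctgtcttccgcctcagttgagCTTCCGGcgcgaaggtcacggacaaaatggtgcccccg
Uqcrh (chr4:116075021-116075320, minus strand): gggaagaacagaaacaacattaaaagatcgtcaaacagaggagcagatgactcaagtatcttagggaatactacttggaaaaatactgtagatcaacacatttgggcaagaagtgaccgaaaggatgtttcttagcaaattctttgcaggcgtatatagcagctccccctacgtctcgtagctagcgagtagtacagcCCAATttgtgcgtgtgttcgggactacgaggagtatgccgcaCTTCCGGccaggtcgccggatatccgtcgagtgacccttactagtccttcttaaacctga
Ndufa5 (chr6:24527477-24527776, minus strand): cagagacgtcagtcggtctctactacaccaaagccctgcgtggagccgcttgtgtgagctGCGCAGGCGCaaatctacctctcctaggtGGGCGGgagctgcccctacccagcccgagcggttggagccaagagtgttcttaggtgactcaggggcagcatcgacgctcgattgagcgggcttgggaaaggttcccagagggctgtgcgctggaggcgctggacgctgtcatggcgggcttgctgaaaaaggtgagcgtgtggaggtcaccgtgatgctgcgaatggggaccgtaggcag
Atp5k and Ndufa5 each held 1 NRF1 match, Atp5k and Uqcrh 1 GABPA match, Uqcrh 1 NF-Y match and Ndufa5 1 SP1 match. Over the 76 windows found for 71 nuclear members, NRF1 letters occurred in 23.7% and in 4.6% of all 32851 windows. GABPA letters occurred in 21.1% against 8.86%, YY1 letters in 13.2% against 2.75%, NF-Y letters in 42.1% against 37.4% and SP1 letters in 42.1% against 35.7%. These matches describe the letters in the windows and no binding was measured.

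The mitochondrial genes of the co-cultures showed none past the threshold, with log2FC from 0.00 (mt-Nd5) to 0.05 (mt-Cytb) and 6 of 7 above 0. mt-Cytb, the mitochondrial subunit of complex III, had a lowest value of 7242, a median of 8154 and a highest value of 8487 CPM after anti-miR-99b, and 7498, 7785 and 8251 CPM after sc-control. mt-Co1 had 6963, 7818 and 8159 CPM against 7310, 7459 and 7979 CPM. The lowest library of both genes was a treated one, and the groups overlapped.

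**Figure D4:**
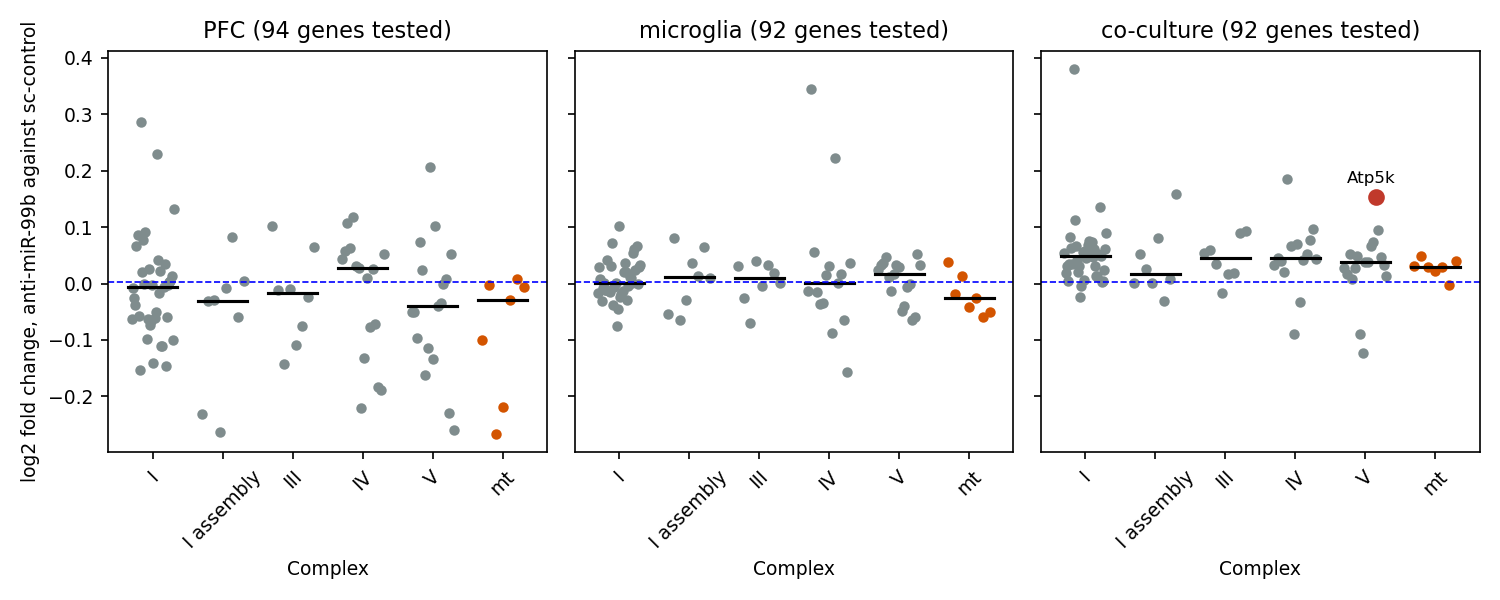
log2 fold change of each tested member in the 3 experiments, by complex for nuclear genes (grey) and together for mitochondrial genes (orange), with the median of each set as a black line and the median of all tested genes as a dashed line. Nuclear members of the co-cultures lie mostly above the dashed line (77 of 85 above 0), those of the PFC and the microglia on both sides, and Atp5k (red) is the only gene past its threshold.

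Other pathways linked to the members were counted in the same fits, with neither the length trend removed nor a block. Over all genes of the co-cultures, 0.846% passed the threshold towards higher values and 51.6% lay above 0. In the co-cultures, 6 of 17 glycolysis genes passed the threshold, all higher, with a median log2FC of 0.16 and 17 of 17 above 0. They were led by Aldoa (aldolase), at 708 ± 24.7 against 633 ± 41.6 CPM (SD), Ldha (lactate dehydrogenase), at 577 ± 35.5 against 494 ± 47.4 CPM, and Eno2 (neuronal enolase), at 289 ± 9.58 against 263 ± 15.3 CPM, with log2FC of 0.16, 0.22 and 0.14. Of 77 tested mitochondrial ribosome genes 65 lay above 0 (median 0.04) and none passed, and of 84 cytosolic ribosome genes 71 lay above 0 (median 0.05) and 1 passed, Rpl34. The citric acid cycle (8 of 11 above 0), complex II (3 of 4), the other assembly factors with cytochrome c (14 of 23), the mitochondrial DNA upkeep genes (8 of 14) and the upstream regulators such as Ppargc1a and Nrf1 (3 of 6) held no called gene. In the PFC and the microglia none of these lists held a called gene, and the glycolysis list had medians of 0.02 and 0.04.

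Cell type markers were counted beside these values. In the co-cultures 5 of 10 microglia markers were higher past the threshold, as were 0.846% of all genes. Among the markers were C1qa (0.34 ± 0.06) and Csf1r (0.34 ± 0.05, log2FC ± SE). The 10 markers summed to 145 to 172 CPM after anti-miR-99b and 123 to 153 CPM after sc-control. The neuron list was at 6176 to 6310 against 6121 to 6442 CPM and the astrocyte list at 2220 to 2356 against 2239 to 2417 CPM, with no called gene. The part of the microglia markers in the members' values was not tested.

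The treatment effects of the 3 experiments were compared as differences of log2FC in 1 fit over the 29 libraries. Of the 94 members tested none had an adjusted p under 0.05 in any of the 3 pairwise differences, while 0.469%, 0.791% and 0.0844% of 18963 genes did for microglia minus PFC, co-culture minus PFC and microglia minus co-culture. The lowest was Atp5f1 for co-culture minus PFC, with a difference of 0.21 ± 0.06 (SE, edgeR adjusted p = 0.0677). For co-culture minus PFC, Atp5f1 passed with RLE factors (0.22 ± 0.05, edgeR adjusted p = 0.0401), and Atp5f1 and Ndufs4 passed with DESeq2 (0.22 ± 0.05 and 0.20 ± 0.06, adjusted p = 0.00466 and 0.0242). The Atp5f1 and Ndufs4 calls thus depend on the tool or scaling. No member passed under these settings in the 2 other differences.

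In the sc-control libraries the members were compared between experiments, with a threshold of an adjusted p under 0.05 and a log2FC beyond 1 and all 15 libraries normalised together. Experiments differ in strain, age, preparation and cell content at once, and these cannot be told apart. Few members passed in comparison with the background. Between microglia and PFC 12 of 86 nuclear members did, 2 higher and 10 lower, where 63.4% of all genes were called, 26.4% higher and 37% lower. Between co-culture and PFC it was 5 of 86, 1 higher and 4 lower (35.4% of all genes, 14.9% higher and 20.5% lower), and between microglia and co-culture 11 of 86, 5 higher and 6 lower (59.5% of all genes, 24.3% higher and 35.2% lower). The median log2FC of the nuclear members was -0.16, -0.14 and -0.06 in these 3 contrasts, and that of all genes -0.15, 0.00 and -0.17. Between microglia and PFC both medians changed sign when the length trend was removed, so that their direction depends on the processing.

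Of the 7 mitochondrial genes none passed a log2FC of 1, yet 5, 6 and 6 of them had an adjusted p under 0.05 in the 3 contrasts, and their order was not shared. mt-Co1 was at 8784 ± 1437 CPM in the PFC, 7260 ± 235 CPM in the microglia and 7282 ± 229 CPM in the co-culture (SD, n = 3, 4 and 8). mt-Cytb was at 7073 ± 959, 3888 ± 204 and 7503 ± 278 CPM, and thus lowest in the microglia, with a log2FC of -0.86 ± 0.06 against the PFC (edgeR adjusted p = 1.22e-12). mt-Nd2 was at 2741 ± 684, 2048 ± 129 and 4087 ± 162 CPM, highest in the co-culture. mt-Nd5 was at 2810 ± 448, 3074 ± 238 and 4800 ± 243 CPM, and its difference between microglia and PFC was not significant (log2FC 0.13 ± 0.08, edgeR adjusted p = 0.107). mt-Co1 differed by 0.00 ± 0.05 between microglia and co-culture (edgeR adjusted p = 0.942), while mt-Nd2, mt-Nd4 and mt-Cytb differed by -0.997, -0.97 and -0.95. The counts of the mitochondrial genes thus did not move as 1 block between the experiments. Shared windows made up 51.1% of mt-Co1 and 62.2% of mt-Nd4, and their part in these levels was not tested.

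Per kilobase of transcript, the most abundant nuclear member of each complex was the same gene in the 3 experiments. In the PFC these were Ndufa4 for complex I by name, although its protein is known to sit in complex IV (288 ± 14.8 CPM per kilobase), Uqcrh for complex III (222 ± 11.2), Cox4i1 for complex IV (494 ± 39.7) and Atp5b, the catalytic beta subunit, for complex V (634 ± 35.3). In the microglia they were at 216 ± 10.3, 202 ± 8.40, 514 ± 25.6 and 509 ± 20.4, and in the co-culture at 307 ± 11.7, 172 ± 5.05, 323 ± 7.87 and 537 ± 4.55 CPM per kilobase (SD). Assembly factors lay lower, from 6.33 (Ndufaf6) to 24.9 (Ndufaf5) in the PFC. The least abundant complex I member was Ndufa4l2 in each experiment, and those of complex IV with any count were Cox8b in the PFC and the microglia and Cox7b2 in the co-culture. Cox8c, a testis isoform, had no count.

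Paired isoforms of complex IV subunits kept a wide distance. Cox4i1 was at 378 ± 30.4, 393 ± 19.6 and 247 ± 6.02 CPM in PFC, microglia and co-culture, and Cox4i2, the isoform known from lung and hypoxia, at 1.60 ± 0.292, 0.468 ± 0.179 and 0.306 ± 0.133 CPM. Cox6a1 was at 207 ± 18.5, 183 ± 11.1 and 180 ± 11.5 CPM, and Cox6a2, the heart and skeletal muscle isoform, at 4.11 ± 0.505, 1.01 ± 0.191 and 0.467 ± 0.0730 CPM. Cox6a2 was lower in the co-culture than in the PFC by a log2FC of -3.12 ± 0.14 (edgeR adjusted p = 5.23e-17). It overlaps Itgad, a leukocyte integrin gene, on the opposite strand over 10.3% of its exons. Cox6b1 was at 146 to 190 and Cox6b2 at 1.01 to 3.45 CPM, Cox7a2 at 89.2 to 114 and Cox7a1 at 0.581 to 1.32 CPM, Cox7b at 96.2 to 108 and Cox7b2 at 0 to 0.386 CPM, and Cox8a at 149 to 218 and Cox8b at 0.0198 to 0.226 CPM over the 3 experiment means. Cox7a2l, involved in supercomplexes, was at 73.4 ± 4.72 CPM in the microglia against 41.9 ± 1.89 and 41.6 ± 1.12 CPM.

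Ndufa4l2, the hypoxia-linked relative of Ndufa4, was also far apart between the experiments. It was at 2.44, 2.22 and 2.00 CPM in the PFC and at 0.259 to 0.503 CPM in the co-cultures, with a log2FC of -2.47 ± 0.17 (edgeR adjusted p = 3.51e-13). In the microglia it had at most 3 counts in an sc-control library, and no fold is given. Cox4i2 followed in the co-culture with -2.35 ± 0.23, while Atp5g2 (1.07 ± 0.17), Cox6b2 (0.86 ± 0.15) and Uqcrb (0.86 ± 0.06) were the highest there against the PFC. In the microglia Atp5g1, a c subunit gene, was at 3.60, 4.41, 4.97 and 5.40 CPM against 20.2, 19.1 and 24 CPM in the PFC (log2FC -2.18 ± 0.11, edgeR adjusted p = 5.43e-16). Atp5g2 went the other way (1.57 ± 0.18), as did Uqcrb (1.01 ± 0.07), with the shares of repeated windows given above for Atp5g2 and of 43.4% for Uqcrb. Atp5g3, the main c subunit gene by level, was at 244 ± 10.9, 231 ± 9.39 and 242 ± 5.18 CPM.

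Members of complex I also differed between experiments. Ndufv1, which carries the NADH site, was at 174 ± 11.6 CPM in the PFC, 73.9 ± 4.69 CPM in the microglia and 95.9 ± 3.26 CPM in the co-culture. Ndufs7, an iron-sulfur subunit, was at 78.2 ± 6.29, 57.9 ± 3.26 and 37.4 ± 1.94 CPM and fell by 1.06 on the log2 scale between PFC and co-culture. The assembly factors Ndufaf7 and Ndufaf5 were at 12.8 ± 0.876 and 10.2 ± 0.807 CPM in the microglia against 38.5 ± 1.35 and 29.1 ± 2.07 CPM in the PFC. Atp5s and Cox6b2 were the lowest in the microglia against the co-culture beside Ndufa4l2, with log2FC of -1.79 and -1.79. Cox7a1, Cox6a2 and Ndufb7, an accessory subunit of complex I, were the highest, with 1.16, 1.11 and 1.11. A log2FC within 1 was found for 74, 81 and 75 of the 86 nuclear members in the contrasts of microglia with PFC, co-culture with PFC and microglia with co-culture.

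**Figure D5:**
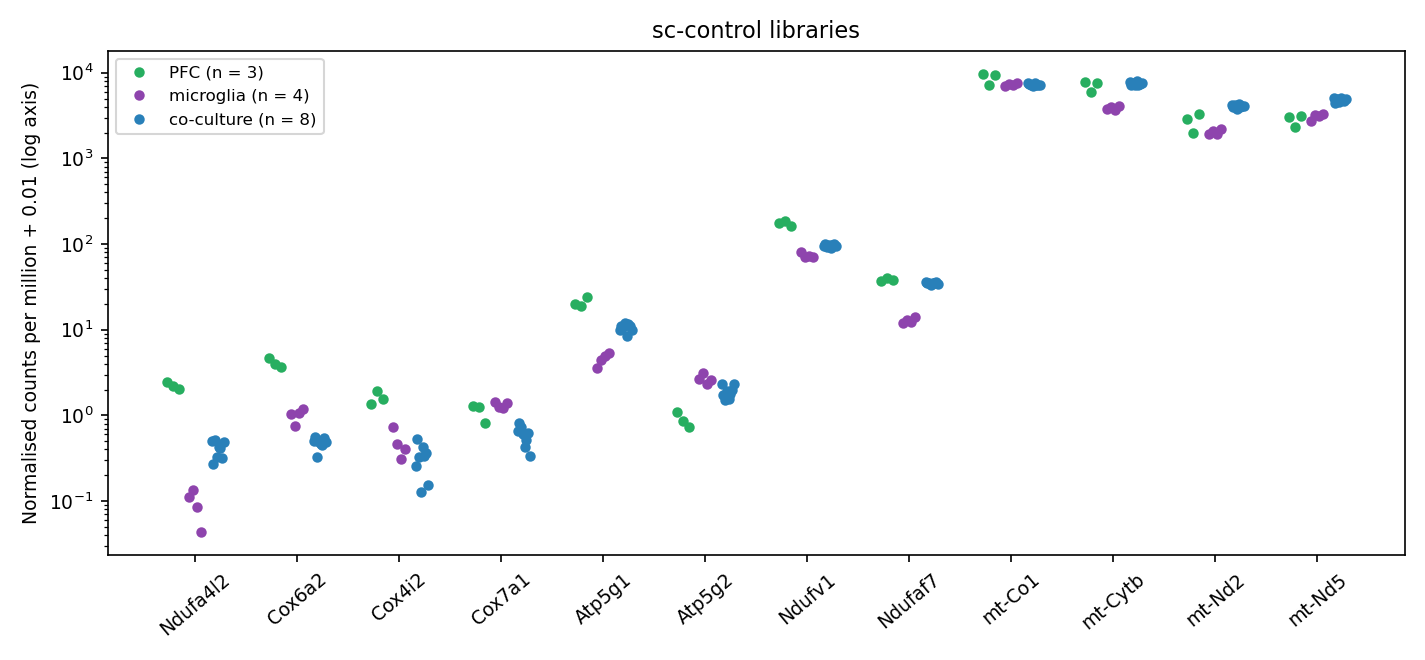
Normalised CPM plus 0.01 (logarithmic axis) of 12 members in the sc-control libraries of PFC (green, n = 3), microglia (purple, n = 4) and co-culture (blue, n = 8), 1 point per library. Ndufa4l2, Cox6a2 and Cox4i2 are highest in the PFC, mt-Cytb is lowest in the microglia (3888 CPM on average) and mt-Nd2 highest in the co-culture, and mt-Co1 is at 7260 to 8784 CPM on average.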

How the data were processed

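The authors sequenced poly(A)-selected TruSeq libraries as single 50-base reads, aligned them with STAR (2.5.2b) to mm10, counted them with featureCounts (1.5.1), and deposited raw counts per gene, 1 table per experiment. The annotation release and strand setting are not given in the sources used here, so counts of overlapping genes are uncertain. Symbols, lengths and coordinates came from GENCODE M21 (GRCm38), promoters and the miRNA from RefSeq. In R 4.3.3, genes passing filterByExpr were fitted with edgeR 4.0.16 (TMM, quasi-likelihood, no covariate, each experiment alone), and p-values adjusted over all genes tested by Benjamini-Hochberg. Thresholds followed the study for PFC and co-culture. CPM are counts scaled by library size and TMM factor, so levels in the joint sc-control fit differ from those per experiment. Shares, ratios and medians over members carry no test. Named by rule are members called by treatment, mitochondrial members, the lowest p of each complex, the extremes of each comparison and of level, isoform sets and up to 3 called genes per pathway list; other names were chosen after their values were seen. Members and lists were chosen with earlier results of these data known. The fits recovered seeded changes on simulated data, but the share recovered is not given here. The seeded changes were larger than the members' treatment effects, so that smaller changes were not covered. Alternatives were DESeq2 1.42.0, RLE or upper-quartile factors, scaling without mitochondrial genes, other filters, RUVs, lane or replicate blocks, a length trend and single libraries left out (added after seeing the data for the co-cultures). Equal library numbers did not pair samples: correlations of their deviations lay between -0.28 and 0.05.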

Additional observations from a re-analysis of the deposited data

Results flagged for a closer look

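Among 64 sets of values checked by Dixon's test in groups of 4 to 8 libraries, of which chance flags about 1 in 20, 4 had a library far from the others of its group, all in the co-cultures. After anti-miR-99b, library 7 had the lowest nuclear member share, 0.773% against 0.806% for the next, and the highest share of mitochondrial ribosomal RNA, 0.331% against 0.282%. In the sc-control group, library 6 had the highest share of mitochondrial ribosomal RNA, 0.311% against 0.271%. Library 3 after anti-miR-99b had the highest Cox6c level, 117 CPM against 112 CPM. Without any one of these libraries, Atp5k stayed past its threshold.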

How the results depend on the processing

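In the PFC no member was called under any alternative, single libraries left out included. Leaving out single libraries moved the nuclear median log2FC between -0.06 and 0.01, the mitochondrial one between -0.19 and 0.12 and the ratio difference between -0.24 and 0.13. With the replicate block (2 shared numbers) and the length trend removed the nuclear median moved to -0.14 and Cox5a turned to -0.040, and with the replicate block alone mt-Nd1 turned to 0.061. In the microglia the replicate block (2 shared numbers) called 1 nuclear member, Ndufa9 (0.14), with a nuclear median of 0.058, and turned Atp5mpl to 0.0055 and Uqcrb to 0.015, or 0.0015 with the length trend removed as well. Single libraries left out gave 0 to 2 mitochondrial calls, both without sc-control library 2. In the co-cultures the nuclear calls were 3 at an adjusted p under 0.1 without a fold minimum, 3 with a RUVs factor, Ndufa5 among them (0.11), 0 with the length trend removed, and 0 with the replicate block (4 shared numbers) with or without the trend. Atp5k was then at 0.11 with the trend removed, 0.11 with the block and 0.08 with both, and mt-Cytb turned to -0.0025 with both. Single libraries left out gave 1 to 2 nuclear calls, Ndufa5 (0.13) being added without anti-miR-99b library 12, and the ratio difference was 0.14 within lane 6. The block rests on few libraries and the cause of each change was not tested. Of the 7 mitochondrial genes, 7, 4 and 7 changed sign under some setting in PFC, microglia and co-culture. Between sc-control libraries, mitochondrial calls rose from 0 to 1 (mt-Nd3) without the low-count filter for microglia against PFC and for co-culture against PFC, to 1 (mt-Nd5) with the length trend removed for co-culture against PFC, and to 3 with upper-quartile factors or 0 to 1 without single libraries for microglia against co-culture. The length trend moved the median of all genes between microglia and PFC from -0.15 to 0.45 and that of the nuclear members from -0.16 to 0.26. For co-culture minus PFC treatment effects, 1 member was called with RLE factors and 2 with DESeq2. Depth limits the isoforms of a few counts, and why the 6 mitochondrial genes were near 0 was not tested.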
